A study of Homo sapiens with 5 samples.

Results

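Small nucleolar RNA host genes are genes whose introns, or more rarely exons, contain the sequences of small nucleolar RNAs (snoRNAs). The host genes described here were taken by symbol from the deposited expression table: every gene named SNHG followed by digits, and 12 listed hosts (GAS5, ZFAS1, EPB41L4A-AS1, TAF1D, RACK1, NOP56, EEF1B2, NCL, RANBP1, CWF19L1, EIF4A2 and EIF4G2). That gave 34 of 58174 genes, of which 22 are SNHG genes, 25 are annotated as non-coding and 9 encode proteins. The levels came from RNA sequencing of 5 libraries of Ishikawa cells, an established line from a human endometrial carcinoma. In 3 libraries, named sh-LINC00958, the cells had been infected with lentivirus carrying a short hairpin RNA against the long non-coding RNA LINC00958, and in 2 libraries, named sh-NC, they carried the negative control. All were cultured in medium with serum, and puromycin at 2.5 µg/ml selected infected cells from 72 h after infection. Hairpin sequences, the number of hairpins, the harvest time and any cloning of selected cells were not given in the sources used here. The question asked of the data is whether levels of these genes differ when LINC00958 is silenced.

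Within the nucleolus, snoRNAs guide chemical modification of ribosomal and small nuclear RNA. Box C/D snoRNAs direct ribose methylation with the proteins FBL, NOP56, NOP58 and SNU13, and H/ACA snoRNAs direct pseudouridylation with DKC1, NHP2, NOP10 and GAR1. A host transcript is spliced, its snoRNA is trimmed out of the intron, and the spliced remainder is either translated or, for many SNHG transcripts, degraded by nonsense-mediated decay, a pathway coupled to translation. Many hosts belong to the terminal oligopyrimidine (TOP) class, whose transcripts begin with a C and a run of pyrimidines, as do those of ribosomal proteins and translation factors.

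The first bases of the host transcripts were read from the RefSeq promoter table (GRCh38.p14), which held 29 of the 34 genes. A transcript start was counted as TOP-like where the first base is C and at least 4 pyrimidines follow it. Of the 29 matched hosts 10 had such a start (34.5%), against 7.09% of the 10290 tested genes found in that table and 4.07% of all its 35116 promoters. The windows below run from 10 bases before the start to 20 bases from it, with the pyrimidine run in capitals. They are shown because the windows differ between hosts that are discussed next: at the RefSeq start TAF1D, ZFAS1, SNHG12, EEF1B2 and RACK1 have a run, and NCL does not.
TAF1D, chr11:93741476-93741505, minus strand: aatagccaacCCTTTTCTTCCgcacggttg
ZFAS1, chr20:49278632-49278661, plus strand: gccattcgttCTTTCgcgtctgcggtgccc
SNHG12, chr1:28581854-28581883, minus strand: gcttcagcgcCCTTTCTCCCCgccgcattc
EEF1B2, chr2:206159885-206159914, plus strand: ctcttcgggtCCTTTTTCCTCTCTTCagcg
RACK1, chr5:181243887-181243916, minus strand: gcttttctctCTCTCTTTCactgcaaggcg
NCL, chr2:231464465-231464494, minus strand: ctttcgcctcagtctcgagctctcgctggc
EEF1B2 has a second RefSeq start without such a run. The letters describe these windows only, and a host without a run at its RefSeq start may have one at another start. For 5 hosts the RefSeq start lies before the GENCODE 29 gene, by 163 nt for GAS5 and 154975 nt for SNHG14, whose windows do not show the first bases of the GENCODE transcripts. The 9 tested hosts with a TOP-like start had a median log2 fold change of 0.06, and 1 of them was called lower. For the 18 tested and matched hosts without such a start the median was -0.01, and 2 were called lower. Over all genes tested, 5.68% were called lower.

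LINC00958 itself measured 67.2, 67.1 and 58.4 TPM in sh-LINC00958 and 119.3 and 137.4 TPM in sh-NC, so the libraries match their labels. TPM, the transcript share of a library, is scaled for gene length and to the same total in every library, so read depth is unknown and every level is relative to the rest of that library's RNA. Of 10 epithelial markers, PAX8 averaged 748 TPM over the 5 libraries, KRT8 578, EPCAM 447, KRT18 306 and CDH1 132 TPM. SOX17 averaged 64.7, EMX2 38.1 and HOXA10 19.7 TPM, while MUC16 averaged only 3.49 and ESR1 0.003 TPM. Of 9 tested epithelial markers 1 was called higher (KRT18) and 1 lower (EMX2). After a trend of fold change with GC content and length was removed, 1 was higher and 3 lower (EMX2, PAX8 and SOX17). The largest fitted fall was that of HOXA10 (log2 fold change -1.52, limma adjusted p = 0.0568) and the largest rise that of MUC16 (0.86, limma adjusted p = 0.140), neither called. The epithelial markers summed to between 2252 and 2387 TPM in sh-LINC00958 and between 2362 and 2365 TPM in sh-NC, which does not show single markers moving in opposite directions. Markers of other cells were low, with the highest mean at 4.81 TPM (COL1A1). CDH5 averaged 2.64, CD68 2.63, PECAM1 1.92 and VWF 1.07 TPM, and none of them was called. The 6 blood cell markers summed to 3.12 to 4.05 TPM against 2.08 to 3.26, the 5 endothelial markers to 4.55 to 6.28 against 6.88 to 7.47, and the 6 fibroblast markers to 5.31 to 5.87 against 4.95 to 5.10, with PTPRC at 0.019 TPM and CD3E, HBB, KDR and DCN at 0 in every library. The labels do not state whether libraries of a group are separate cultures, and p-values then reflect only differences among these libraries, which can be technical. In bulk RNA, less RNA per cell and fewer cells with the RNA cannot be told apart.

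The host genes covered more than 2 orders of magnitude in level. EEF1B2, a subunit of the translation elongation factor that recharges EEF1A, was the most abundant at a mean of 874 TPM over the 5 libraries, and RACK1, a scaffold protein of the small ribosomal subunit, followed at 743 TPM. The most abundant non-coding hosts were SNHG5 (540.2 TPM), GAS5 (448 TPM), SNHG1 (221 TPM) and SNHG6 (204 TPM). At the low end SNHG22 averaged 0.511 TPM, with 0.825, 0.484 and 0.859 TPM in sh-LINC00958 and 0.389 and 0 in sh-NC, and SNHG18 was listed at 0 in every library. Those 2 did not reach a mean of 1 TPM over the 5 libraries and were not tested, which left 32 hosts. All 34 hosts together took 0.631% to 0.661% of TPM in sh-LINC00958 and 0.672% and 0.678% in sh-NC, and the 25 non-coding ones 0.225% to 0.245% and 0.227% and 0.240%. The non-coding totals overlapped between the groups, and the totals with the coding hosts did not.

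**Figure D1:**
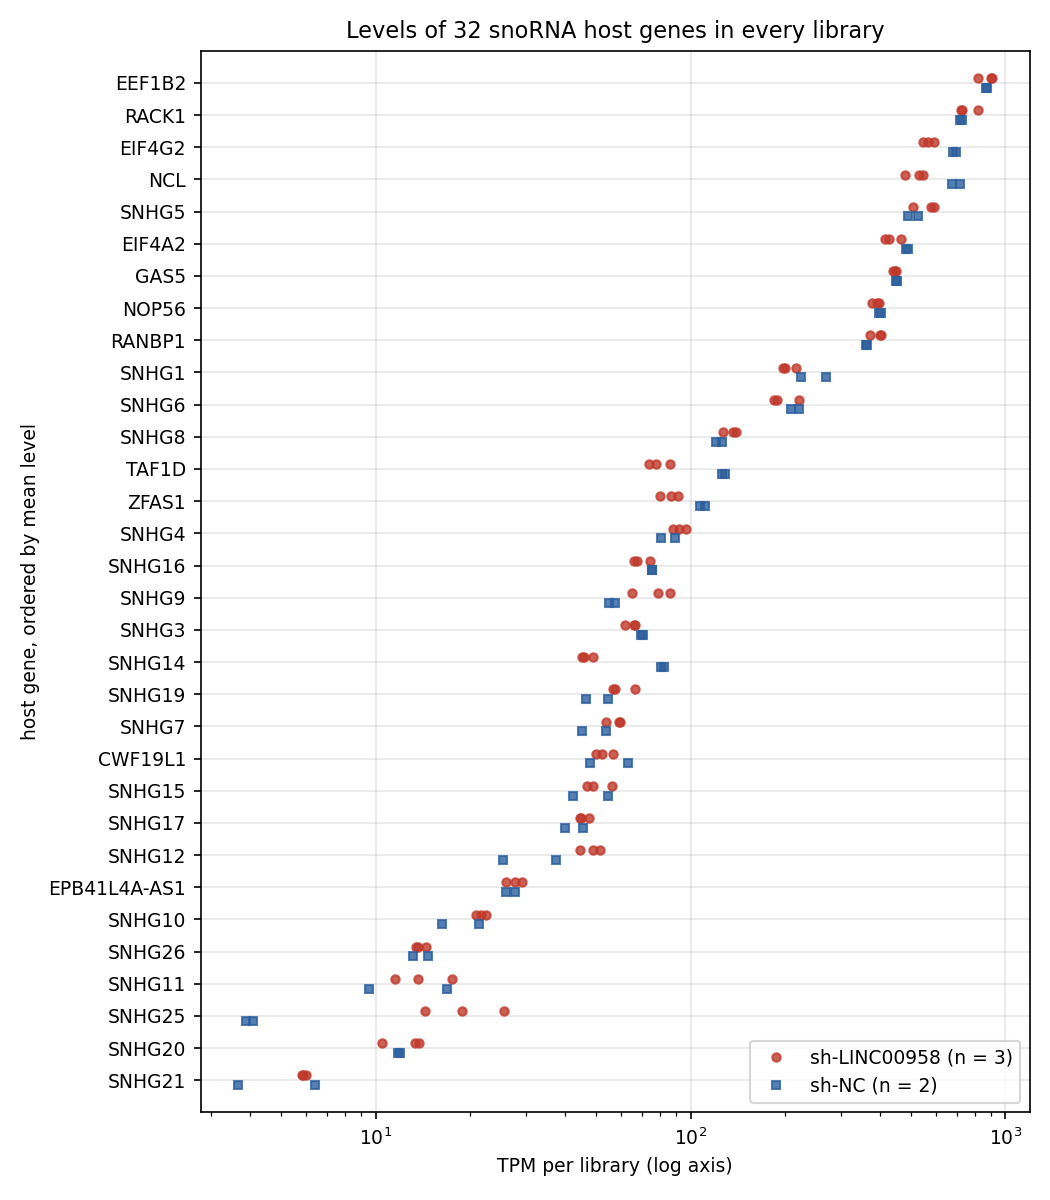
TPM per library on a log axis for the 32 tested host genes, ordered by mean level, with a red circle for each of 3 sh-LINC00958 libraries and a blue square for each of 2 sh-NC libraries. SNHG25, SNHG14, TAF1D and NCL show groups far apart for their spread, and GAS5, EEF1B2 and SNHG26 show groups on top of each other.

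Most host genes kept similar levels in the 2 groups. In limma's test on log2(TPM + 1) over 17049 genes, with Benjamini-Hochberg adjustment over all of them and a threshold of 0.05, 1 host was called higher (SNHG25) and 3 lower (SNHG14, TAF1D and NCL). The remaining 28 were not called. The called share was 12.5% of 32, against 9.80% of all genes tested (4.12% higher and 5.68% lower), so the hosts were called about as often as genes in general. Libraries of the groups did not overlap for 16 of the 32 hosts, 6 of them higher and 10 lower, against 49.9% of all genes tested. The median log2 fold change was 0.05 over the 32 hosts, 0.09 over the 23 non-coding and -0.05 over the 9 coding ones, and 0.0014 over all genes. For 18 hosts the fitted change was under 0.15 in size. The counts rested on single libraries, as did those over all genes. The main fit called 702 of all genes higher and 969 lower. The fit without sh-LINC00958 replicate 1 called 36 and 51, without replicate 2, 904 and 1486, and without replicate 3, 112 and 145. Dropping sh-LINC00958 replicate 1 left 1 host higher and 0 lower, dropping replicate 2 gave 2 higher and 4 lower, and dropping replicate 3 left 0 higher and 1 lower. Dropping either sh-NC replicate left 0 in both directions. With 3 libraries against 2, an exact permutation test of a single gene cannot give a p below 0.1.

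**Figure D2:**
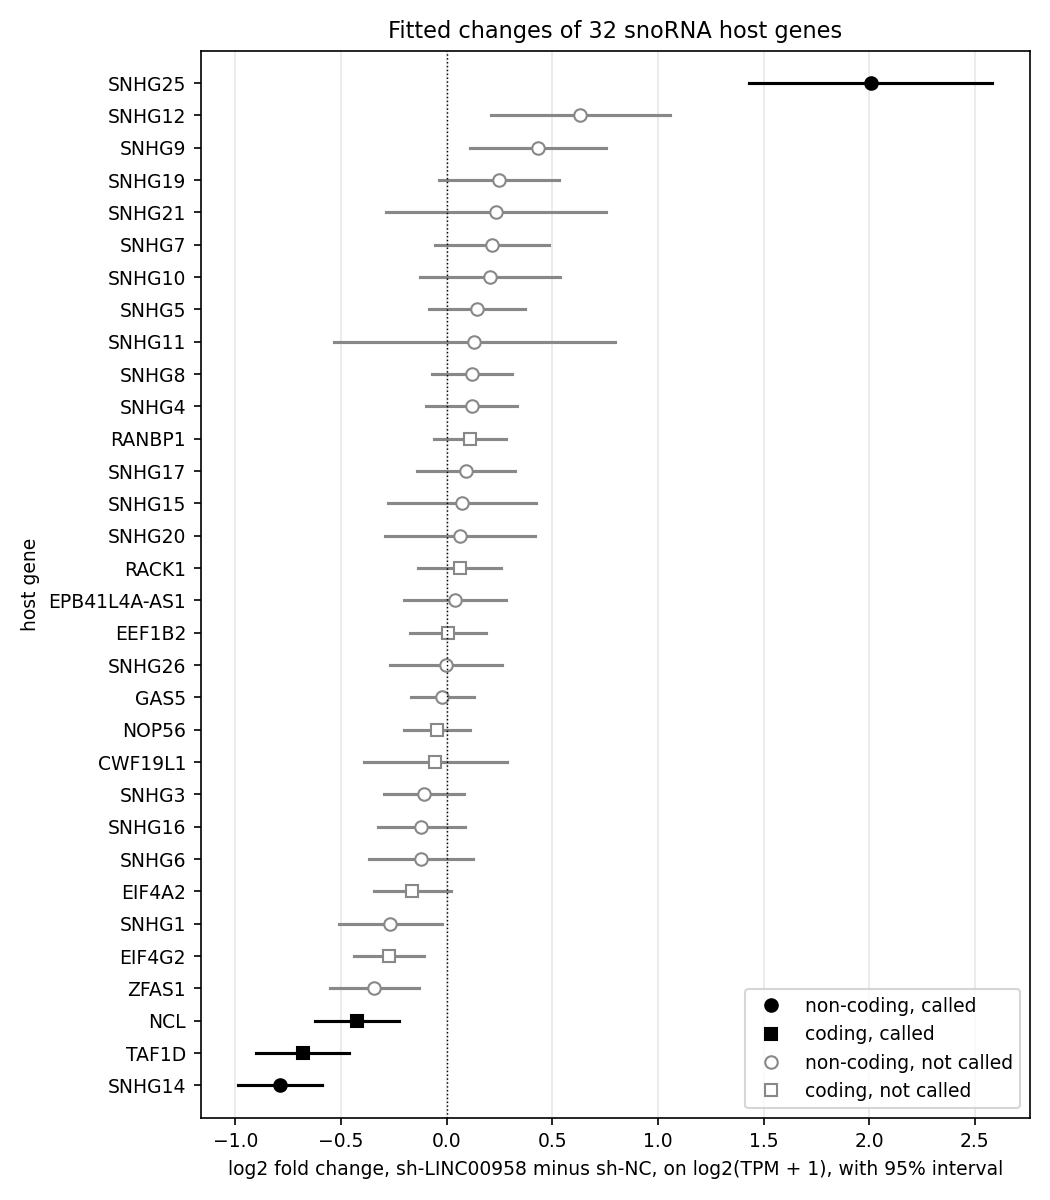
Fitted log2 fold change (sh-LINC00958 minus sh-NC, on log2(TPM + 1)) with its 95% interval for the 32 tested host genes, ordered by size, with circles for non-coding and squares for coding hosts and filled black symbols for those called at an adjusted p of 0.05. SNHG25 stands at 2.01, SNHG14, TAF1D and NCL lie below 0 at -0.79, -0.68 and -0.43, and most other intervals include 0.

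SNHG25 rose most among the hosts. It is a short non-coding gene of 2 exons (ENSG00000266402, GRCh38 chromosome 17, 64145970 to 64146476, plus strand, 278 nt of exon) that carries SNORD104 in its intron and SNORA50C within its second exon. It measured 25.5, 14.3 and 18.8 TPM in sh-LINC00958 and 4.08 and 3.88 TPM in sh-NC. Every sh-LINC00958 library was above both controls, and the spread was wide in the silenced group and narrow in the control group (19.5 ± 5.64 TPM, SD, n = 3, against 3.98 ± 0.142, SD, n = 2). The log2 fold change was 2.01 (standard error 0.234, limma adjusted p = 0.0135, 95% interval 1.43 to 2.58). Of the 3 snoRNA genes annotated inside it, SNORD104 and SNORA50C rose as well. SNORD104, at 27.6, 22.1 and 30.4 TPM against 11.4 and 14.2 TPM, had a log2 fold change of 1.00 (limma adjusted p = 0.0276). SNORA50C, at 16.9, 12.9 and 12.6 TPM against 7.60 and 5.46 TPM, had one of 1.01 (limma adjusted p = 0.0336). The SNORA50 annotation, which overlaps SNORA50C, was not among the called genes. SNORA50C lies inside an exon of SNHG25 on the same strand, so reads of one cannot be told from reads of the other there, and 133 of the 278 nt of exon belong to both. SNORD104 and SNORA50C were called without sh-LINC00958 replicate 2 and lost their call without any other single library (limma adjusted p between 0.0696 and 0.138 and between 0.0725 and 0.164). The call of SNHG25 was lost without sh-LINC00958 replicate 3 (limma adjusted p = 0.0506), sh-NC replicate 1 (0.0984) or sh-NC replicate 2 (0.0959), with log2 fold changes of 2.01, 2.04 and 1.98.

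SNHG14 fell to 57.4% of its control level. It is a very long non-coding gene of the imprinted Prader-Willi and Angelman region (ENSG00000224078, GRCh38 chromosome 15, 24978583 to 25419462, plus strand) whose introns hold the SNORD116 and SNORD115 snoRNA clusters and whose far end runs antisense to the ubiquitin ligase gene UBE3A. It measured 45.8, 49.0 and 45.2 TPM in sh-LINC00958 and 82.1 and 80.4 TPM in sh-NC, with a gap between groups many times the spread within them. The log2 fold change was -0.79 (standard error 0.0805, limma adjusted p = 0.0103, 95% interval -0.99 to -0.59). Its annotated neighbours did not all follow. PWAR6, a non-coding gene within an intron of SNHG14 on the same strand, fell from 17.8 and 17.9 TPM to 10.2, 11.1 and 9.34 TPM (log2 fold change -0.75, limma adjusted p = 0.0234), and AC124312.5, another intronic transcript, fell from a mean of 5.14 to 1.60 TPM (-1.24, limma adjusted p = 0.0183). Unlike SNHG14, neither was called with the trend of fold change with GC content removed (-0.17 and -0.30, limma adjusted p = 0.308 and 0.355). SNRPN, the protein-coding gene at the start of the same region and on the same strand, averaged 112 against 91.5 TPM and was not called (0.29, limma adjusted p = 0.0773). UBE3A, on the opposite strand, averaged 49.6 against 40.2 TPM and was not called (0.25, limma adjusted p = 0.604). Only 5 of the 84 snoRNA genes annotated inside SNHG14 reached a mean of 1 TPM. Of these 5, SNORD64 (2.94, 2.95 and 2.12 against 1.18 and 0.841 TPM, log2 fold change 0.87, limma adjusted p = 0.0446) and SNORD116-2 (1.29, limma adjusted p = 0.0321) rose while their host fell. SNORD116-2 was listed at 0 in sh-NC replicate 1 and passed the filter of 1 TPM only through the silenced libraries, where it is high. The SNHG14 call was lost without sh-LINC00958 replicate 1 (limma adjusted p = 0.0589), sh-NC replicate 1 (0.0899) or sh-NC replicate 2 (0.0849), at log2 fold changes between -0.77 and -0.80.

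Among the coding hosts TAF1D and NCL fell. TAF1D encodes a TATA-box-binding protein associated factor of the RNA polymerase I initiation complex, which transcribes ribosomal RNA genes (ENSG00000166012, GRCh38 chromosome 11, 93729948 to 93784391, minus strand, 8 snoRNA genes inside). It measured 77.6, 85.9 and 73.6 TPM in sh-LINC00958 and 129 and 126 TPM in sh-NC, a log2 fold change of -0.68 (standard error 0.0905, limma adjusted p = 0.0181, 95% interval -0.90 to -0.46). The groups were well apart. At 37.9% it also has the lowest transcript GC content of the tested hosts, and after the trend of fold change with GC content and length was removed its log2 fold change was -0.29 and it was not called (limma adjusted p = 0.0591). NCL encodes nucleolin, an abundant nucleolar protein of ribosomal RNA synthesis and processing (ENSG00000115053, GRCh38 chromosome 2, 231453531 to 231483641, minus strand, 3 snoRNA genes inside). It measured 531, 549 and 481 TPM against 718 and 678 TPM, with every silenced library below both controls (log2 fold change -0.43, standard error 0.0816, limma adjusted p = 0.0347, 95% interval -0.63 to -0.23). The NCL fold barely moved with that removal (-0.40, limma adjusted p = 0.0347). NCL was not called without sh-LINC00958 replicate 1 or 3 or without either sh-NC replicate (limma adjusted p between 0.0766 and 0.169), and TAF1D was not called without the same libraries (between 0.0514 and 0.115).

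The other 7 coding hosts were not called. EIF4G2, a translation initiation factor related to EIF4G that lacks the binding site for the cap-binding protein EIF4E, measured 549, 594 and 568 TPM against 699 and 679 TPM. The groups did not overlap, and the log2 fold change was -0.27 (limma adjusted p = 0.0586, 95% interval -0.44 to -0.11). EIF4G2 was called without sh-LINC00958 replicate 2 (limma adjusted p = 0.0368), and with the GC and length trend removed its fold was -0.15 (limma adjusted p = 0.190). EIF4A2, an RNA helicase of the initiation complex, measured 428, 465 and 415 TPM against 492 and 482 TPM (-0.16, 95% interval -0.35 to 0.02). Its groups did not overlap either, with a gap smaller than the spread of the silenced libraries. RACK1 measured 820.4, 726 and 722 TPM against 720.0 and 726 TPM, and 1 silenced library stood above the rest. EEF1B2 measured 902, 817 and 907 TPM against 876 and 865 TPM, with the controls inside the silenced range (log2 fold change 0.01, 95% interval -0.17 to 0.19). NOP56, itself a core protein of box C/D particles, measured 396, 376 and 391 TPM against 403 and 397 TPM (-0.05, 95% interval -0.20 to 0.11). RANBP1, which assists the GTPase RAN in nuclear transport, measured 403, 399 and 371 TPM against 364 and 359.9 TPM, higher in every silenced library by a small margin (0.11, 95% interval -0.06 to 0.28). CWF19L1, a gene related to a yeast splicing factor, measured 52.3, 50.1 and 56.8 TPM against 47.8 and 63.4 TPM, and its control libraries spanned all the others.

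Several non-coding hosts had non-overlapping groups without passing the test. ZFAS1, a TOP-like host of 3 SNORD12 family snoRNAs (ENSG00000177410, GRCh38 chromosome 20, 49278178 to 49295738, plus strand), measured 91.5, 86.9 and 79.9 TPM against 107 and 111 TPM. All silenced libraries were lower, with a log2 fold change of -0.34 (limma adjusted p = 0.0622, 95% interval -0.55 to -0.13), and ZFAS1 was called lower once the GC and length trend was removed (-0.45, limma adjusted p = 0.0322). SNHG12 measured 51.8, 44.5 and 49.0 TPM against 37.4 and 25.4 TPM. Its silenced libraries were all higher, but the 2 controls were farther from each other than the higher one was from the lowest silenced library (log2 fold change 0.63, limma adjusted p = 0.0716, 95% interval 0.21 to 1.06). SNHG9 measured 79.0, 65.0 and 86.2 TPM against 55.1 and 57.4 TPM (0.43, limma adjusted p = 0.0909, 95% interval 0.11 to 0.75). With 65.0% it has the highest GC content of the tested hosts, its fold fell to 0.17 after the trend was removed, and it was called without sh-LINC00958 replicate 2 (0.55, limma adjusted p = 0.0273). SNHG1, host of 7 annotated snoRNA genes, measured 199.9, 197 and 216 TPM against 224 and 269 TPM (-0.27, limma adjusted p = 0.142, 95% interval -0.51 to -0.02). Here the lower control lay close to the highest silenced library.

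GAS5 was nearly level across all libraries. This host, named for its accumulation in growth-arrested cells, measured 451, 446 and 439 TPM in sh-LINC00958 and 449 and 454 TPM in sh-NC. The groups overlapped and the log2 fold change was -0.02 (95% interval -0.17 to 0.13). SNHG5 measured 595, 508 and 582 TPM against 489 and 526 TPM, with sh-LINC00958 replicate 2 between the controls (0.14, 95% interval -0.08 to 0.37). SNHG6 measured 220.3, 184 and 188 TPM against 221 and 208 TPM, again with 1 silenced library among the controls. SNHG8 measured 139, 126 and 136 TPM against 120.5 and 126 TPM, and its groups nearly touched. EPB41L4A-AS1 measured 27.8, 29.3 and 25.9 TPM against 25.9 and 27.7 TPM, without separation (0.04, 95% interval -0.20 to 0.28).

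The other SNHG genes between 20 and 100 TPM were not called, with fitted changes from -0.12 to 0.25. SNHG4 measured 91.7, 87.8 and 96.9 TPM against 80.5 and 89.2 TPM, and SNHG17 measured 47.5, 44.5 and 44.9 TPM against 40.1 and 45.6 TPM. Both overlapped between groups. SNHG16, at 74.2, 67.8 and 66.2 TPM against 75.4 and 75.5 TPM, was slightly lower in every silenced library. SNHG3, at 62.1, 66.1 and 66.8 TPM against 69.5 and 70.5 TPM, was too. For both the 95% interval of the log2 fold change included 0 (-0.33 to 0.09 and -0.30 to 0.08). SNHG19, a TOP-like host of 342 nt of exon, measured 66.7, 56.9 and 57.3 TPM against 46.7 and 54.7 TPM, higher in each silenced library (0.25, 95% interval -0.04 to 0.53), but its fold was 0.0087 with the GC and length trend removed. SNHG7 measured 59.2, 53.7 and 59.9 TPM against 45.1 and 54.1 TPM. SNHG15 measured 56.4, 46.8 and 48.9 TPM against 42.2 and 54.6 TPM. SNHG7 and SNHG15 overlapped between groups, as did SNHG10 at 20.8, 22.4 and 21.6 TPM against 21.3 and 16.2 TPM. The 4 remaining tested hosts, SNHG11, SNHG20, SNHG21 and SNHG26, averaged between 5.56 and 13.9 TPM with fitted changes from -0.0045 to 0.23, and the groups overlapped for each of them. SNHG11 had the widest gap between the 2 controls (9.51 and 16.9 TPM).

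Libraries of a group agreed closely for most hosts. The highest sh-LINC00958 library exceeded the lowest by a median of 1.12 times over the 32 hosts, and by 1.78 times for SNHG25. The 2 controls differed by a median of 1.06 times, and by more than 1.2 times for 7 hosts (CWF19L1, SNHG7, SNHG10, SNHG11, SNHG12, SNHG15 and SNHG21). Replicate 2 of sh-LINC00958 was the silenced library nearest to the control mean for 15 of the 32 hosts, replicate 1 for 10 and replicate 3 for 7.

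In GENCODE release 29, 164 snoRNA and Cajal body RNA genes lie within 33 of the 34 hosts on the same strand, 84 of them in SNHG14. None is annotated in GAS5. Only snoRNAs annotated as separate genes in that release were counted, so this does not show that GAS5 hosts none. Of the 80 outside SNHG14, 78 lie in an intron of at least 1 host transcript and 2, the overlapping SNORA50 and SNORA50C annotations of SNHG25, only in an exon. Box C/D genes sat close to the downstream exon, at a median of 89.5 nt for 32 genes with 22 of them between 60 and 110 nt. For 34 H/ACA genes the median was 269.5 nt and 6 lay in that window. The mature snoRNAs carry no poly(A) tail and the libraries were made with an mRNA kit, so whether the values of these genes reflect the mature RNAs is not shown. Of the 80 genes, 35 were listed under 1 TPM.

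Of the 50 snoRNA genes inside hosts that reached a mean of 1 TPM, 8 rose, 3 fell and 39 were not called, against 4.12% and 5.68% of all genes. Leaving out single libraries moved these counts, and those over all genes too, as given above. Dropping sh-LINC00958 replicate 1 left 3 higher and 2 lower, and dropping replicate 3 left 2 higher and 3 lower, while dropping replicate 2 gave 8 and 4. Dropping sh-NC replicate 1 left 2 higher and 1 lower, and dropping sh-NC replicate 2 the opposite, 1 and 2. For 5 of the 11 called genes, SNORD5, SNORD12, SNORD27, SNORD116-2 and SNORA77B, the mean was under 1 TPM in 1 group. They passed the filter only through the group where they are high and so had to differ, and the counts support nothing about the hosts' snoRNAs as a whole. The direction of the fitted change was that of the host for 29 of the 50. TAF1D, ZFAS1 and SNHG1 each held a called snoRNA gene whose fitted change was over 4 in size, far more than that of the host. Their sequences and that of SNORD104 are printed with the C box (TGATGA) and D box (CTGA), the motifs that box C/D proteins bind, in capitals.
SNORD5, in TAF1D, chr11:93733228-93733300, minus strand: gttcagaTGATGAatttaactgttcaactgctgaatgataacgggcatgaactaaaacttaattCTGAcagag
SNORD12, in ZFAS1, chr20:49280683-49280772, plus strand: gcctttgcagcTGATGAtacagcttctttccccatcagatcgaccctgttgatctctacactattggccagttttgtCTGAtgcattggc
SNORD12B, in ZFAS1, chr20:49280319-49280409, plus strand: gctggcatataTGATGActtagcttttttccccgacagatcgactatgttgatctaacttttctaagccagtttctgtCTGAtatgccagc
SNORD27, in SNHG1, chr11:62855012-62855083, minus strand: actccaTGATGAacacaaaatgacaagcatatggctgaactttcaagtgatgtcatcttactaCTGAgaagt
SNORD104, in SNHG25, chr17:64146083-64146152, plus strand: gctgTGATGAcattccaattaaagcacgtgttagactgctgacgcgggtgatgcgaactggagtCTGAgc

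SNORD5 measured 25.6, 32.2 and 16.9 TPM in sh-LINC00958 and 0.424 and 0.467 TPM in sh-NC (log2 fold change 4.12, limma adjusted p = 0.00486), while its host TAF1D fell. The call of SNORD5 was lost without sh-NC replicate 2 (limma adjusted p = 0.0567). SNORD12 measured 19.2, 21.5 and 20.2 TPM against 0.299 and 0.269 TPM (4.05, limma adjusted p = 5.2e-04), while ZFAS1 was lower without being called and SNORD12B, printed beside it for its shared stretches, measured 11.3, 10.6 and 16.4 against 8.37 and 9.51 TPM (0.45, limma adjusted p = 0.195). SNORD27 went the other way, at 0.227, 0.269 and 0.263 TPM against 39.6 and 27.3 TPM (-4.76, limma adjusted p = 0.0012), and its neighbour SNORD30 in the same host measured 16.9, 17.4 and 18.9 against 15.7 and 16.9 TPM (0.11). SNORD12 and SNORD27 were called whichever sh-LINC00958 library was dropped. Like SNORD5, both passed the filter only through the group where they are high. The filter was not redone for these fits, so they add no support. In these 3 genes each library was either under 0.5 TPM or above 16 TPM. The same jumps occurred between libraries of 1 group. SNORA40 in TAF1D measured 0.249, 0.315 and 78.6 TPM in sh-LINC00958 and 96.7 and 97.9 TPM in sh-NC, and SNORD26 in SNHG1 measured 22.0, 0.247 and 0.240 TPM against 30.0 and 37.3 TPM. Neither was called (limma adjusted p = 0.177 and 0.144). Within a group, the highest library exceeded the lowest more than 10 times for 6 of the 50 genes (SNORD26, SNORA44, SNORD116-2, SNORD116-24, SNORA40 and the SNORA17 annotation in SNHG7), which were picked out after their values were seen. How the quantification divides reads between a snoRNA gene and the host transcripts that retain its intron was not tested. Host transcripts with an exon that overlaps the snoRNA are annotated for SNORD5, SNORD12 and SNORD27 (2, 1 and 4). Whether these transcripts retain the whole intron was not checked.

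**Figure D3:**
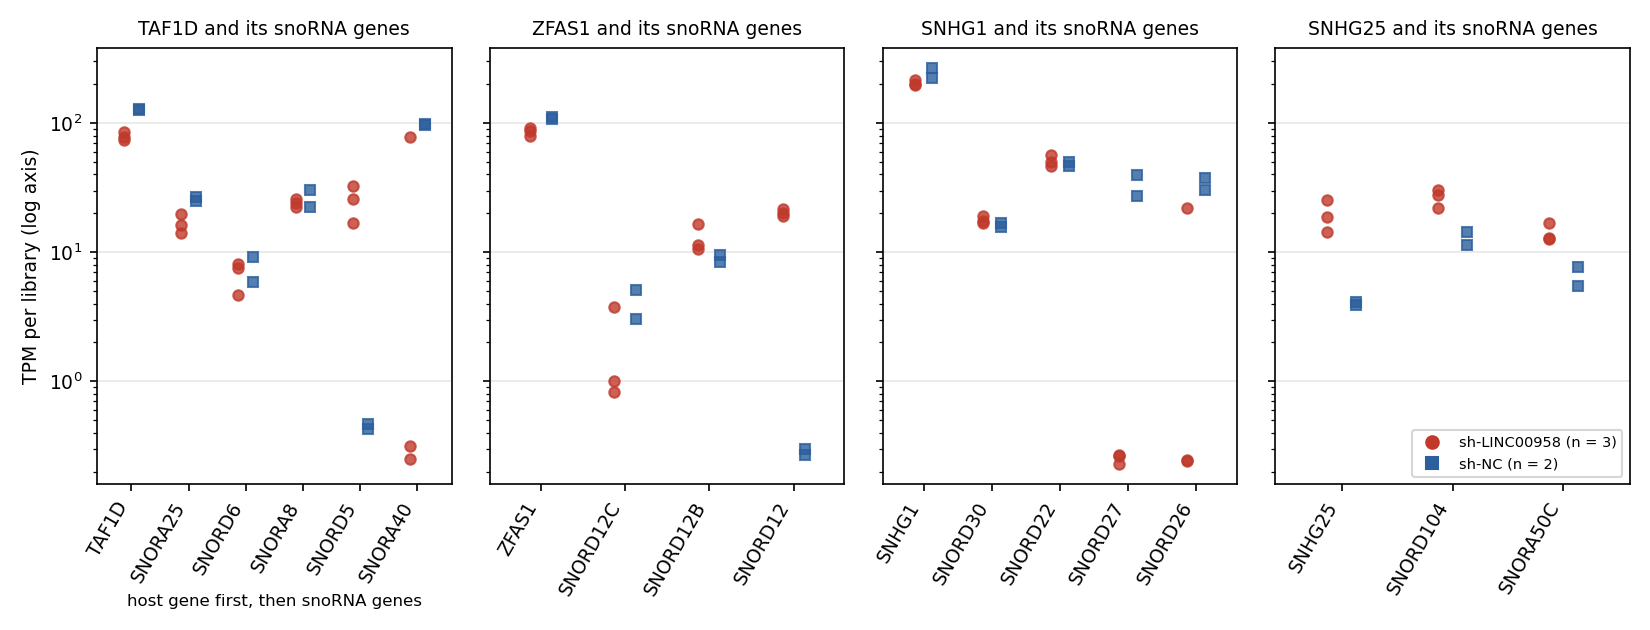
TPM per library on a log axis for TAF1D, ZFAS1, SNHG1 and SNHG25 (first in each panel) and the snoRNA genes inside them with a mean of at least 1 TPM, with red circles for 3 sh-LINC00958 libraries and blue squares for 2 sh-NC libraries. SNORD5 and SNORD12 are near 0.3 to 0.5 TPM in the controls and above 16 TPM in the silenced libraries, SNORD27 is the reverse, and SNORA40 and SNORD26 split within the silenced group.

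Other snoRNA genes moved by smaller steps. SNORA77B, inside RANBP1, rose from 0.136 and 0.139 TPM to 3.63, 9.68 and 6.87 TPM (log2 fold change 2.68, limma adjusted p = 0.0178), while RANBP1 differed by 0.11. As stated above, SNORA77B passed the filter only through the silenced libraries, where it is high. SNORA77B was not called without sh-LINC00958 replicate 3 or either sh-NC replicate (limma adjusted p between 0.0569 and 0.1101). SNORA74A in SNHG4 rose (5.02, 3.67 and 3.96 against 1.47 and 1.98 TPM, 0.93, limma adjusted p = 0.0361). SNORA4 in EIF4A2 fell (65.8, 85.04 and 74.1 against 111 and 113 TPM, -0.58, limma adjusted p = 0.0388) and SNORD87 in SNHG6 fell (25.1, 24.1 and 28.7 against 37.2 and 35.7 TPM, -0.48, limma adjusted p = 0.0472). In the values as deposited, SNORA4 and SNORD87 moved in the direction of their hosts' estimates, though neither host was called. With the GC and length trend removed both host estimates changed sign (EIF4A2 0.10 and SNHG6 0.06), while those of SNORA4 and SNORD87 stayed negative. Once that GC and length trend was taken out, SNORA74A, SNORA4, SNORD87, SNORD64 and SNORA50C were not called. Their log2 fold changes were then 0.83, -0.50, -0.20, 0.98 and 0.74 in that order. The fold shrank most for SNORD87 and was about as large for SNORA74A, SNORD64 and SNORA4.

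Most genes for proteins that build snoRNA particles were not called, though the summed level of each list was higher in every silenced library. The core proteins summed to 2160 to 2367 TPM in sh-LINC00958 and 2038 to 2073 TPM in sh-NC. The assembly factors summed to 828 to 869 and 724 to 756 TPM. Of 8 tested core proteins, NOP10, an H/ACA subunit, rose (496 ± 31.5 against 375 ± 4.64 TPM, SD, n = 3 and 2, log2 fold change 0.40, limma adjusted p = 0.0358). NOP58, the partner of NOP56 in box C/D particles, fell (131 ± 8.66 against 176 ± 2.69 TPM, -0.43, limma adjusted p = 0.0350). FBL, the methyltransferase, and DKC1, the pseudouridine synthase, had log2 fold changes of 0.26 and 0.22 and were not called. Of 12 assembly factors, NOLC1, a nucleolar and Cajal body phosphoprotein that binds both particle classes, rose from 57.4 ± 1.87 to 116 ± 17.4 TPM (0.99, limma adjusted p = 0.0178). RUVBL2, an ATPase of the assembly complex, rose from 141 ± 1.03 to 205 ± 11.8 TPM (0.53, limma adjusted p = 0.0212). Of 20 nonsense-mediated decay factors, SMG5 (0.34, limma adjusted p = 0.0420) and the splicing-linked factor RNPS1 (0.30, limma adjusted p = 0.0492) rose. MAGOHB, an exon junction complex subunit, fell (-0.61, limma adjusted p = 0.0446), and the helicase UPF1 was not called (0.22). The median log2 fold changes of the 3 lists were 0.07, -0.03 and 0.09, against 0.0014 over all genes. Together 5 of 40 rose (background 4.12%) and 2 fell (5.68%). These counts moved when single libraries were left out, as did those over all genes. Dropping sh-LINC00958 replicate 1 or either sh-NC replicate left 0 called, dropping sh-LINC00958 replicate 3 left 1 higher, and dropping replicate 2 gave 7 higher and 4 lower. With the GC and length trend removed NOP10, NOLC1 and RUVBL2 were called and the other 4 were not, at smaller folds (NOP58 -0.22, SMG5 0.19, RNPS1 0.19 and MAGOHB -0.22).

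Further lists placed the hosts among similar genes. Of 30 other protein-coding snoRNA hosts, many of them ribosomal protein genes, 0 rose and 2 fell, CCT6A, a chaperonin subunit (489 ± 0.359 to 328 ± 6.47 TPM, log2 fold change -0.57, limma adjusted p = 0.0120), and NOP58, which is also in the core protein list. Their median log2 fold change was -0.01. Of 17 other translation genes of the TOP class, 3 rose and 1 fell, with a median of -0.13. Over all genes tested, 4.12% were called higher and 5.68% lower. EEF1D (0.44, limma adjusted p = 0.0249), a partner of EEF1B2 in the same elongation complex, EIF3F (0.52, limma adjusted p = 0.0420) and NACA (0.28, limma adjusted p = 0.0480) rose, and EIF3E fell (-0.38, limma adjusted p = 0.0384). With the GC and length trend removed CCT6A alone among these was called (limma adjusted p = 0.0454), and the EIF3E fold was -0.01. EEF1D (0.26), EIF3F (0.57) and NACA (0.25) were not called there, though the folds of EIF3F and NACA were about as large.

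Fold changes of the hosts went with GC content. Across the 32 hosts the Pearson correlation between transcript GC content and log2 fold change was 0.58 (0.55 over 31 without SNHG25). The hosts share the 5 libraries, and over all genes 22.1% of the variance of fold changes went with GC content and length. With that trend removed, 1 host was called higher and 3 lower, as before, against 2.45% and 2.63% of all genes. SNHG25 (1.73, limma adjusted p = 0.0192), SNHG14 (-0.75, limma adjusted p = 0.0103) and NCL were called in both fits, and ZFAS1 took the place of TAF1D. The sign of the estimate changed for 11 hosts, none called in either fit. It went from below to above 0 for EIF4A2, GAS5, SNHG6, CWF19L1 and SNHG26, and from above to below 0 for EEF1B2, RACK1, SNHG11, SNHG15, SNHG17 and SNHG20. Among the uncalled hosts with non-overlapping groups the fold of SNHG1 went to -0.14 and that of RANBP1 to 0.0058, while SNHG12 kept 0.56.

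**Figure D4:**
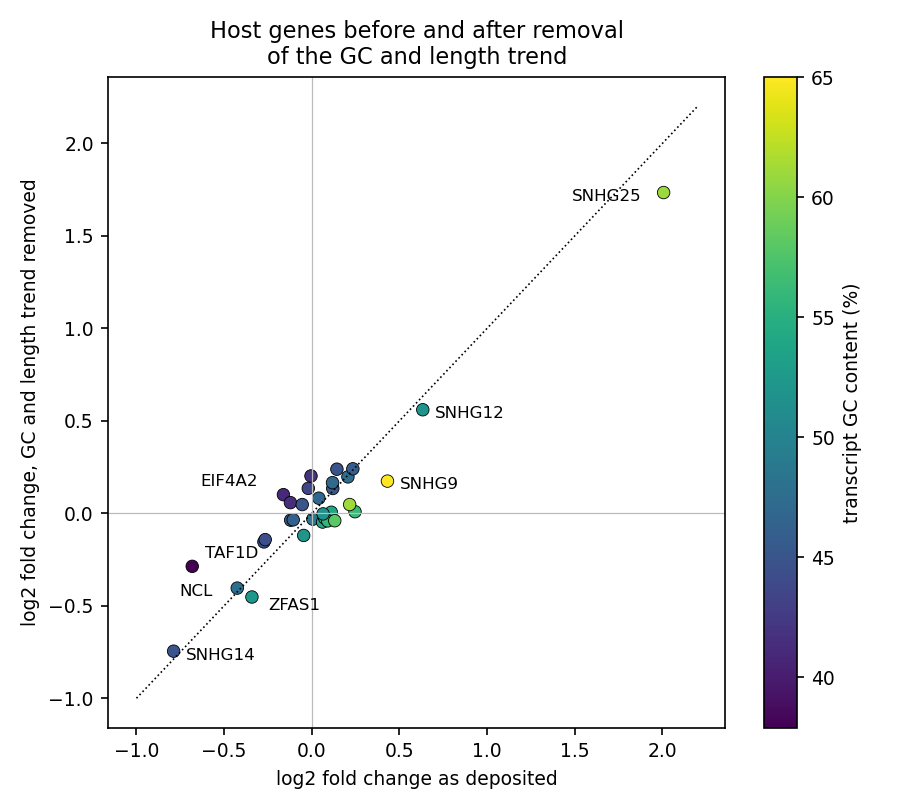
Log2 fold change of the 32 tested host genes from the values as deposited (horizontal axis) and with the GC and length trend taken out (vertical axis), coloured by transcript GC content in percent, with a dotted line of equality. SNHG25 and SNHG14 stay near the line at 2.01 and 1.73 and at -0.79 and -0.75, while TAF1D, with the lowest GC content, moves from -0.68 to -0.29.

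Some hosts share sequence with other genes, and the strand setting of the counting is unknown here. For 6 hosts, at least 10% of the exon length overlaps a gene on the opposite strand with a mean of 1 TPM or more. These were EPB41L4A-AS1 with EPB41L4A (49.6%), SNHG16 with AC015802.6 (30.6%), SNHG6 with MCMDC2 (29.3%), SNHG7 with FAM69B (25.2%), SNHG10 with GLRX5 (20.1%) and ZFAS1 with ZNFX1 (11.1%). Their values can include reads of those genes, none of which was called in the values as deposited. EPB41L4A had a log2 fold change of 0.53 there (limma adjusted p = 0.0515) and was called higher with the GC and length trend removed (0.68, limma adjusted p = 0.0248). On the same strand SNHG21 shares 72.9% of its exon length with AC105339.2, SNHG4 14.0% with MATR3 and SNHG20 7.56% with SEC14L1. SEC14L1 was called lower (log2 fold change -0.57, limma adjusted p = 0.0142), also with the GC and length trend removed (-0.65, limma adjusted p = 0.0110). TAF1D overlaps 3 opposite-strand genes by 1.05% to 2.97% of its exon length, of which C11orf54 fell (log2 fold change -0.56, limma adjusted p = 0.0446) but was not called with the GC and length trend removed (-0.21, limma adjusted p = 0.489). Processed copies by symbol exist for EEF1B2 (8 genes with a summed mean of 12.8 TPM), EIF4A2 (5 genes, 0.528 TPM), NOP56 (3 genes, 5.17 TPM) and NCL (2 genes, 1.41 TPM), and reads may be divided between these and the hosts.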

How the data were processed

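The authors deposited gene-level TPM values for 5 libraries, 3 sh-LINC00958 and 2 sh-NC. Tools in the submitters' processing notes are StringTie 1.3.3b, HISAT2 2.0, Trimmomatic 0.36 and FastQC 0.11.2, and the genome build GRCh38. Annotation release and strandedness were not given in the sources used here. Groups and replicate numbers came from sample titles.

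Genes with a mean TPM of at least 1 (17049 of 58174) were tested with limma 3.58.1 (R 4.3.3) on log2(TPM + 1), by lmFit and eBayes (with trend, two-sided, Benjamini-Hochberg over all genes tested, threshold 0.05). Fold changes on this scale understate changes of low genes. The fit was tested on simulated data. GENCODE 29 supplied coordinates, types, exon length and GC content for 57836 gene IDs. The GC and length setting subtracts from each library a spline in both, over 16999 genes. Sequences came from RefSeq (GRCh38.p14) and GENCODE 29 transcripts.

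Members and lists were chosen with earlier results of these data known. Named in full are called members, SNHG genes of at least 20 TPM and coding members; from each list, called genes and the 2 with the smallest p; and snoRNA genes inside these hosts with a mean of at least 1 TPM. Of the snoRNA genes only those called or set beside a called one are named. FBL, DKC1 and UPF1 are named for their function, outside this rule.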

Additional observations from a re-analysis of the deposited data

How the results depend on the processing

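Alternatives changed the pseudocount (0.1 or 5), the filter (none, or a mean of at least 5 TPM), the scaling (median-ratio, quantile, or rescaling without mitochondrial genes and genes under 200 nt), the mean-variance trend, the GC and length trend, a replicate block, and left out each library. Host genes called lower numbered 5 at a mean of at least 5 TPM. With the replicate block, in which sh-LINC00958 replicate 3 carries no weight because it has no partner, 0 hosts were higher and 0 lower, 0 processing genes (particle and decay lists) were higher and 0 lower, and 0 snoRNA genes inside hosts were higher and 1 lower, with 2 genes called in all. Same-numbered libraries deviated together with correlations of 0.0013 and 0.0497. Deviations of the 2 controls from their mean mirror each other, so these values cannot show whether the numbers pair libraries. Processing genes were 1 higher and 0 lower without a filter, 2 and 0 without the mean-variance trend, and 3 and 0 with the GC and length trend removed. SnoRNA genes, whose alternatives were added after the data were seen, were 3 higher and 1 lower without a filter, 4 higher at a mean of at least 5 TPM, 1 lower without the mean-variance trend, and 5 and 1 with the GC and length trend removed; rescaling without short genes leaves them out. Leaving out single libraries gave 0 to 2 hosts higher and 0 to 4 lower, 0 to 7 and 0 to 4 processing genes, and 1 to 8 and 1 to 4 snoRNA genes. The cause of these shifts was not tested, apart from the smaller number of samples or genes where some are left out. No called host changed direction under any alternative run. NCL was also not called without a filter (limma adjusted p = 0.0953), with quantile normalization (0.0520) or without the mean-variance trend (0.0754), and at a mean of at least 5 TPM EIF4G2 (0.0457) and ZFAS1 (0.0495) were called lower, as was ZFAS1 with median-ratio scaling (0.0482). Depth is unknown from TPM, so low values such as those of SNHG22 carry no counting interval.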
